A study of Mus musculus with 9 samples.

Results

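The comparison described here set 3 libraries from eyes given ABTAA against 3 from eyes given VEGF Trap, that is 6 of the 9 samples of the study, chosen by their titles. The other 3 came from eyes given Fc, the antibody fragment that served as the control, and their values stand beside the rest for reference. The mice were males aged 8 weeks. Each eye had received 4 laser burns that break the Bruch membrane, so that new vessels grow in from the choroid, which is the mouse model of choroidal neovascularization (CNV). All 3 reagents were injected into the vitreous at 5 µg per eye from a stock of 5 mg/ml. The lesion with a rim of retinal pigment epithelium and choroid was cut out by laser capture, so every sample mixed new vessels with uninjured tissue. RNA was read from its 3′ ends. No source used here gives the strain, the interval between injection and collection, or the eyes or animals behind each library. The p-values therefore measure only the spread between these libraries, which may be technical.

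Tie2, the product of Tek, is a receptor tyrosine kinase of endothelial cells. Angiopoietin-1 from cells around the vessel activates it and so supports endothelial survival and tight cell contacts, through AKT and the exclusion of FOXO1 from the nucleus. Angiopoietin-2, which endothelial cells release themselves, can block that signal. ABTAA is an antibody that binds angiopoietin-2 and turns it into an activator of Tie2. VEGF Trap is a soluble decoy made of VEGF receptor domains, which keeps VEGF-A and placental growth factor from their receptors. The comparison thus puts activation of one endothelial pathway beside blockade of another in the same lesion.

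Total counts ran from 6335805 to 10060014 in the ABTAA libraries and from 7346988 to 14439835 in the VEGF Trap libraries, and ABTAA 3 and VEGF Trap 3 were the shallowest. A floor of 3 counts equalled 0.209 to 0.469 CPM (counts scaled to library size, with TMM factors), which covers counting error only. The ribosomal precursor Rn45s took 10.1% to 15.8% of counts. Pairs of ABTAA libraries differed by a chi-square of 8.25 to 10.8 per degree of freedom, pairs of VEGF Trap libraries by 9.63 to 20.3, and pairs across the groups by 7.99 to 24.0. These ranges overlap, and all exceed counting noise. Pigment epithelium genes were present throughout, with summed levels of 5393 to 7040 CPM in ABTAA and 6165 to 6713 CPM in VEGF Trap. The Fc tables are headed by a name for knockout controls, unlike their titles, so values against Fc rest on the titles.

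No gene passed the test. Of 14054 genes tested, 0 (0%) had an adjusted p under 0.05 by edgeR's quasi-likelihood test with Benjamini-Hochberg adjustment, and the smallest adjusted p was 0.851. At an unadjusted p under 0.05 there were 371 genes (2.64%) with a higher mean in ABTAA and 340 (2.42%) with a lower one, 711 in all, where 703 would be expected if no gene differed. Scaling by library totals in place of TMM moved that split to 503 higher and 236 lower. By position alone, 722 genes (5.14%) had all 3 ABTAA libraries above all 3 VEGF Trap libraries, and 666 (4.74%) had all below. The log2 fold change was above 0 for 6950 genes (49.5%) and below 0 for 7104 (50.5%), with a median of -0.0033. DESeq2 called 1 gene, limma-voom 0, edgeR with no filter 30 and edgeR with replicate numbers as blocks 1.

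**Figure D1:**
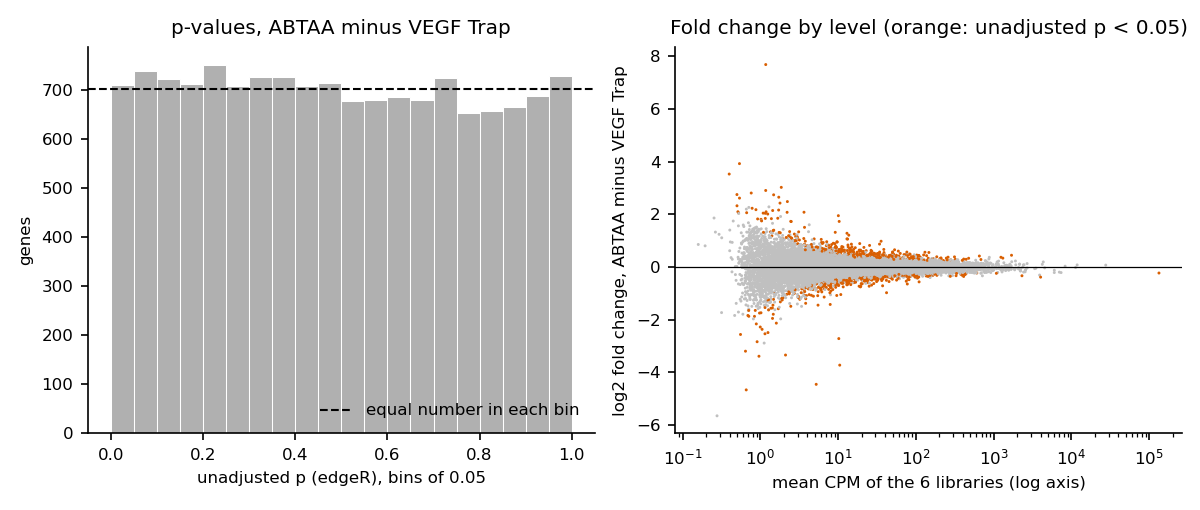
Unadjusted edgeR p-values of 14054 genes in bins of 0.05 (left) and log2 fold change, ABTAA minus VEGF Trap, against mean CPM of the 6 libraries on a log axis (right, orange where the unadjusted p was under 0.05). The bars stay near the dashed line of equal numbers, with 711 genes in the lowest bin.

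The width of the intervals shows which sizes of difference the values of each gene allow. These intervals are unadjusted, so they do not state what the adjusted test could have detected. The median standard error was 0.205 on the log2 scale, and the 95% interval of the difference lay within a 2-fold change in either direction for 10365 genes (73.8%). Among 8489 genes with a mean of at least 10 CPM, 8326 (98.1%) had such an interval. Within a 1.5-fold change it lay for 6563 of all genes (46.7%). A p that misses the threshold does not show that the reagents act alike. The rest of the text describes the values of the vessel, immune and tissue genes, none of which passed the adjusted threshold, and unadjusted p-values stand beside them as a description. The lists and most genes were chosen with earlier results of these data known, and some lists share members, so their counts are not independent evidence.

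Most endothelial genes had a higher mean in ABTAA than in VEGF Trap. All 29 endothelial markers were tested, 24 had a higher mean in ABTAA (49.5% of all genes did) and 5 a lower one, and the median log2 fold change was 0.27 against -0.0033 over all genes. At an unadjusted p under 0.05 were 11 higher (2.64% of all genes were) and 0 lower, and in 12 every ABTAA library was above every VEGF Trap library (5.14% of all genes). Without ABTAA 2 the count of 11 was 6, and without VEGF Trap 3 it was 7. Their summed level was 3684 to 3864 CPM in ABTAA and 2850 to 3237 CPM in VEGF Trap, with no overlap, and 2538 to 3243 CPM in Fc. Skeletal muscle markers, which come from a tissue with vessels of its own, had a higher mean in ABTAA for 15 of 19, with a median of 0.46. Their summed levels overlapped between the groups at 330.6 to 679 CPM in ABTAA and 316.8 to 535.2 CPM in VEGF Trap. The part of muscle in the vessel values was not tested. In bulk tissue, more endothelial cells and more RNA per cell cannot be told apart.

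Pecam1 encodes CD31, an adhesion molecule at endothelial contacts (chr11:106654217-106750628, minus strand, GRCm38, as all positions of genes here). It read 351, 355 and 357 CPM in ABTAA, 262, 258 and 296 in VEGF Trap and 285, 244 and 248 in Fc. All ABTAA libraries lay above both other groups, and the log2 fold change from VEGF Trap was 0.38 (SE 0.10, 95% interval 0.16 to 0.60, unadjusted p = 0.00212 by edgeR). Egfl7, a factor that endothelial cells secrete into the matrix of growing vessels, was at 1526, 1419.6 and 1442 CPM in ABTAA, 1200.5, 1235 and 1040.5 in VEGF Trap and 1169, 903 and 929 in Fc, a log2 fold change of 0.34 (SE 0.11). For Kdr, which encodes VEGF receptor-2, the libraries gave 62.0, 56.8 and 50.5 CPM in ABTAA, 42.2, 46.7 and 35.4 in VEGF Trap and 53.8, 47.3 and 46.4 in Fc. Its ABTAA libraries were all above those of VEGF Trap by 0.44 (SE 0.14), while the Fc mean lay between those of the 2 reagents. Emcn, an endothelial sialomucin, read 99.6, 116 and 106 CPM against 73.5, 101 and 82.4, so the groups overlapped. Icam2, an adhesion molecule for leukocytes, read 48.1, 48.3 and 57.1 against 37.9, 44.0 and 37.7 with no overlap. The transcription factor Fli1 read 27.9, 29.5 and 31.8 against 24.3, 25.6 and 20.5, and its relative Erg differed by -0.20 (SE 0.16). Exons of Egfl7 overlap Agpat2 on the other strand and those of Eng overlap Fpgs, and whether the counting used strand is not given.

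Sox18, a transcription factor of growing endothelium, had the largest difference of the endothelial list and the least even values. It read 15.6, 28.1 and 3.44 CPM in ABTAA, 5.64, 3.07 and 5.96 in VEGF Trap and 7.47, 1.19 and 3.05 in Fc. ABTAA 3 was within the range of VEGF Trap, and ABTAA 1 and ABTAA 2 were above all of it, with a log2 fold change of 1.73 (SE 0.59). Sox18 was among the 30 genes called by edgeR with no filter (adjusted p = 0.00184), as were Arg1, Gimap4, Ciita and Ncmap. With the filter the adjusted p of Sox18 was 0.932 by edgeR, and no other alternative called any of these genes. The list was not uniform. Vwf, Clec14a and Ecscr differed by -0.0029, -0.01 and 0.03, and Tie1 and Sox7 by -0.10 and -0.32.

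The promoters of Eng and Kdr are shown because both genes had all ABTAA libraries above VEGF Trap, yet differ in the letters AGGAA. ETS factors such as Fli1 and Erg bind a core of GGAA, of which AGGAA is a narrower form. The sequences are the 250 bases before the RefSeq start (GRCm38.p6), 5′ to 3′ on the strand of the gene. Capitals mark AGGAA on either strand.
Eng, chr2:32646345-32646594, plus strand: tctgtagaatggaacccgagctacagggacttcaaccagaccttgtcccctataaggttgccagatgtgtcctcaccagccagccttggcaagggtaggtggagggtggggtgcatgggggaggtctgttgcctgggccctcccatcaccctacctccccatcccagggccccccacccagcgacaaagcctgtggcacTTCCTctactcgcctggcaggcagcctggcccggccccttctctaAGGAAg
Kdr, chr5:75978456-75978705, minus strand: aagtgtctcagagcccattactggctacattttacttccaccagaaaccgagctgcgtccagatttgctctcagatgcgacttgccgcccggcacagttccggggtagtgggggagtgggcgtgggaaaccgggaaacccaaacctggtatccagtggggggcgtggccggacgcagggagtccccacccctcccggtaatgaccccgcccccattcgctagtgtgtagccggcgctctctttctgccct
The Eng window held 2 matches, 1 of them on the strand of the gene, and 25.8% of 27025 promoters held at least as many. In the Kdr window these letters were not found. The shorter GGAA does occur there, unmarked and on both strands, so the lack of AGGAA does not mean a lack of ETS cores. Over all promoters 60.2% held at least 1 match, and among the 12 endothelial markers whose promoter was at hand it was 9. A match describes the letters and is not evidence of binding.

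**Figure D2:**
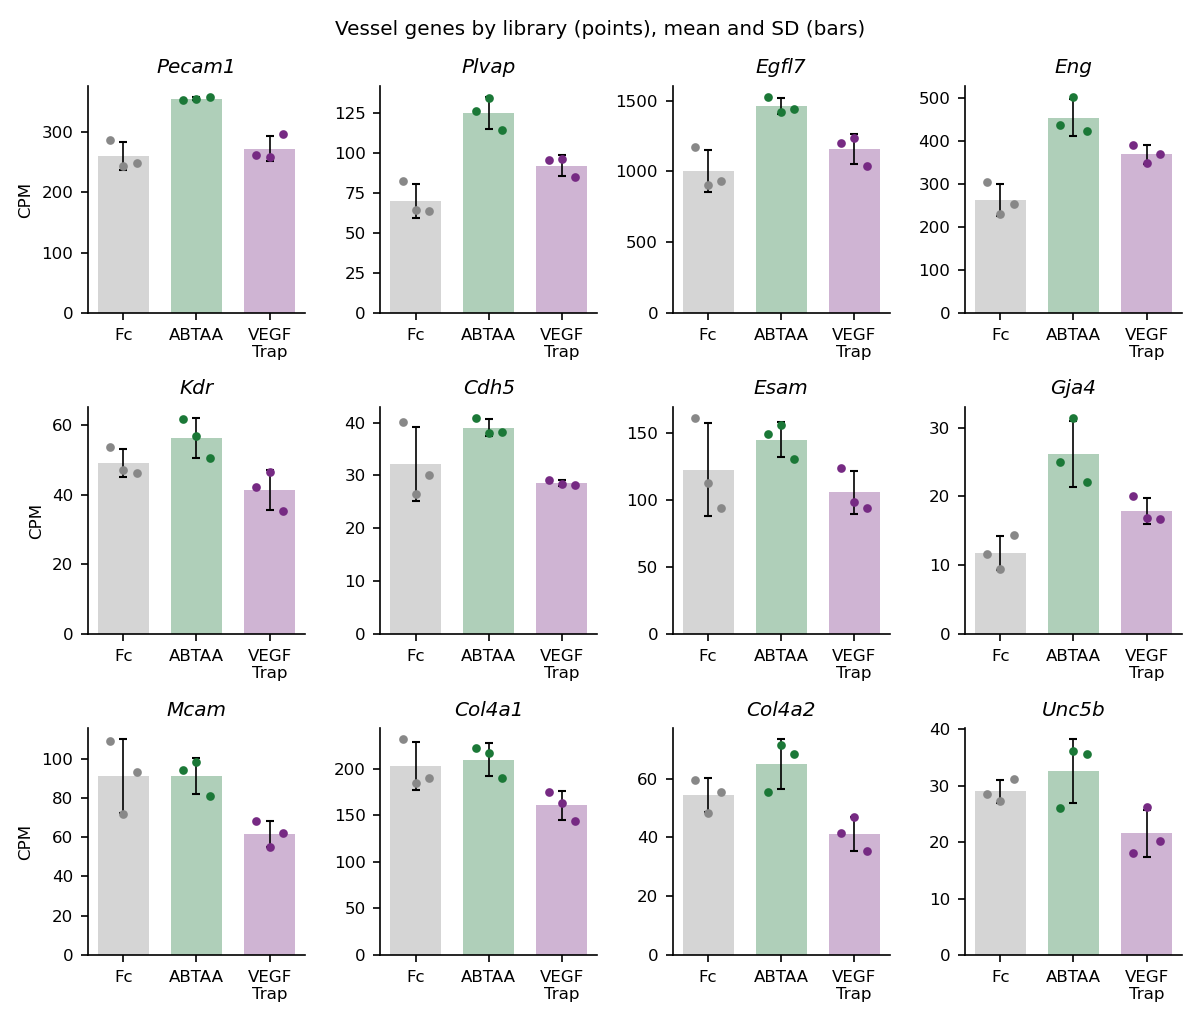
CPM of 12 vessel genes in each library (points), with the mean (bar) and SD (line) of the 3 libraries of Fc, ABTAA and VEGF Trap. Unc5b is the 1 gene shown whose ABTAA and VEGF Trap libraries overlap.

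The list of junction and barrier genes mixes endothelial members with genes that epithelia also use. It had 13 of 17 members with a higher mean in ABTAA, 6 with all ABTAA libraries above (5.14% of all genes) and 1 with all below (4.74%), and a median of 0.17. Its median was 6.808e-05 without ABTAA 2. Cdh5, the vascular cadherin of adherens junctions, was at 40.9, 38.0 and 38.2 CPM in ABTAA, 29.2, 28.4 and 28.1 in VEGF Trap and 40.1, 26.4 and 30.0 in Fc. The difference between the reagents was 0.45 (SE 0.15, unadjusted p = 0.0107 by edgeR), with no overlap. Esam, an adhesion molecule of endothelial tight junctions, read 149, 156 and 131 CPM against 124, 98.9 and 94.6, and Fc ran wider at 162, 113 and 94.2. Cldn5, the main claudin of endothelial tight junctions, read 42.1, 53.5 and 51.3 CPM in ABTAA and 42.1, 38.9 and 40.2 in VEGF Trap. Its lowest ABTAA value exceeded the highest VEGF Trap value only in the second decimal, and both reagents stood above Fc at 28.9, 27.2 and 24.3. Ctnnd1, which encodes p120 catenin and holds cadherins at the membrane, read 333, 364 and 361 against 242, 304 and 320.3. Ocln, a tight junction protein of epithelia and endothelia, was near the floor at 0.62, 2.78 and 1.41 against 0.497, 0.488 and 0.416 CPM. Tjp1, Ctnnb1 and Jam2, which many cell types express, differed by 0.04, 0.0045 and 0.03.

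Plvap, which forms the diaphragms of the fenestrae that make choroidal capillaries permeable, had an unadjusted p of 0.00374 by edgeR (chr8:71497765-71511752, minus strand). The libraries held 127, 134 and 114 CPM in ABTAA, 95.7, 96.1 and 84.8 in VEGF Trap and 82.6, 64.5 and 63.8 in Fc. ABTAA lay above VEGF Trap in every library, by 0.44 (SE 0.13, 95% interval 0.17 to 0.71), and VEGF Trap lay above Fc. Of the 9 genes of diaphragms and caveolae 8 had a higher mean in ABTAA, with a median of 0.19. Cav1, the scaffold of caveolae, differed by 0.16 (SE 0.17), and Ehd4, a membrane remodelling ATPase, by 0.20 with no overlap.

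Among genes that respond to flow and mark quiet vessels, 11 of 15 had a higher mean in ABTAA, 4 at an unadjusted p under 0.05 (2.64% of all genes) and 0 lower, with a median of 0.11. That count was 1 without ABTAA 2 and 2 without VEGF Trap 2. Gja4, the gap junction protein connexin 37 of arterial endothelium, was at 25.0, 31.4 and 22.1 CPM in ABTAA, 20.1, 16.9 and 16.8 in VEGF Trap and 11.6, 9.51 and 14.4 in Fc. The 3 groups stood in that order without overlap, and the difference between the reagents was 0.55 (SE 0.19). Eng encodes endoglin, a co-receptor for BMP9 on endothelium, and read 437, 502 and 422 CPM in ABTAA, 390.0, 348 and 368 in VEGF Trap and 304, 231 and 254 in Fc. The order was the same, again without overlap. Acvrl1, the kinase receptor ALK1 that works with endoglin, read 314, 259 and 250.3 CPM against 238, 238 and 175. Nos3, the endothelial nitric oxide synthase, read 10.1, 13.8 and 14.1 against 8.29, 6.97 and 10.95, which overlap. Of the targets of this receptor pair, Id1 differed by 0.0015 (SE 0.15), Tmem100 by -0.01 (SE 0.23) and Smad7 by 0.12 (SE 0.14). Klf2, a factor induced by laminar flow, read 91.8, 114 and 74.3 CPM in ABTAA and 81.4, 88.5 and 89.4 in VEGF Trap, both above Fc at 72.1, 57.0 and 54.9.

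Transcripts of the angiopoietin and Tie family that ABTAA engages mostly overlapped between the groups. Of 11 tested ligands, receptors and partners 8 had a higher mean in ABTAA, and 3 of these were at an unadjusted p under 0.05 (2.64% of all genes). That count was 0 without ABTAA 1 or without ABTAA 2, it was 1 without ABTAA 3, any 1 VEGF Trap library, Fc 1 or Fc 3, and by DESeq2 it was 0. Angpt2, the ligand that ABTAA binds, read 10.2, 10.5 and 9.54 CPM in ABTAA, 6.22, 7.18 and 8.18 in VEGF Trap and 8.69, 6.28 and 9.70 in Fc. All ABTAA libraries were above VEGF Trap, by 0.50 (SE 0.23), and within or just above the range of Fc. Tek, which encodes Tie2 itself (chr4:94739289-94874976, plus strand), read 35.3, 34.2 and 23.0 CPM in ABTAA, 30.8, 29.5 and 15.8 in VEGF Trap and 31.4, 20.9 and 21.5 in Fc. The groups overlapped throughout, with a difference of 0.27 (95% interval -0.23 to 0.78), and the third library of each reagent was the lowest. Angpt1, the ligand from perivascular cells, read 214, 209.6 and 210.3 CPM against 214, 193 and 195. Svep1, a matrix protein that binds Tie1, differed by 0.47 (SE 0.22), and Itgb3, an integrin chain that angiopoietin-2 can bind, by 0.42 (SE 0.20). Ptprb, the phosphatase that removes the activating phosphates of Tie2, differed by -0.01 (SE 0.13), a value whose sign changed under library totals.

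Downstream of Tie2, 8 of 20 genes of AKT and FoxO signalling had a higher mean in ABTAA and 12 a lower one, with a median of -0.011. Foxo1 read 41.2, 42.3 and 38.8 CPM in ABTAA and 34.1, 39.6 and 36.9 in VEGF Trap, a difference of 0.15 (95% interval -0.12 to 0.42). The kinases Akt1 and Akt2 differed by 0.11 and 0.16. Phosphorylation, through which this pathway signals, was not measured.

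Of the 10 transcripts of the VEGF family, which includes the targets of VEGF Trap, Kdr alone had all ABTAA libraries above, beside 5.14% of all genes. With all below were 0, beside 4.74% of all genes. Vegfa read 234, 309 and 317 CPM in ABTAA and 312, 291 and 292 in VEGF Trap, with a difference of -0.06 (95% interval -0.35 to 0.24). Pgf, which encodes placental growth factor, read 78.1, 66.0 and 72.0 against 55.4, 82.1 and 69.6, and both groups mostly exceeded Fc at 55.7, 46.8 and 50.6. Flt1, which encodes VEGF receptor-1, differed by 0.17 (SE 0.15), and the co-receptors Nrp1 and Nrp2 by 0.01 and 0.02. Vegfc, the ligand for lymphatic vessels, differed by -0.70 (SE 0.37) with overlap. The median of the family was 0.042.

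Notch signalling decides between leading and following endothelial cells of a sprout. Of 12 genes 8 had a higher mean in ABTAA, 4 of them with all ABTAA libraries above, beside 5.14% of all genes. With all below, beside 4.74% of all genes, was 1, the ligand Jag2, at low counts and with a difference of -1.10 (SE 0.81). Notch4, the receptor most restricted to endothelium, read 11.4, 11.8 and 12.4 CPM in ABTAA, 7.05, 8.22 and 4.99 in VEGF Trap and 7.94, 7.81 and 7.33 in Fc. ABTAA stood above both, by 0.79 (SE 0.22, unadjusted p = 0.00282 by edgeR) from VEGF Trap. Heyl, a Notch target of mural cells, read 11.6, 12.6 and 18.3 against 5.97, 11.9 and 6.38 and overlapped. Hey1, a target in endothelium, differed by 0.40 and Nrarp, a feedback inhibitor, by 0.38, both without overlap. The ligand Dll4 was low at 4.03, 3.37 and 1.56 CPM against 3.65, 2.30 and 2.63, and Jag1 differed by -0.15.

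Tip cells lead a sprout, and VEGF drives the expression of several of their genes. Of 23 genes of the list 19 had a higher mean in ABTAA, 9 of them at an unadjusted p under 0.05 (2.64% of all genes) and 0 lower, with a median of 0.24. Leaving out any 1 library gave 7 to 10. The median stood at 0.05 for ABTAA minus Fc and at -0.20 for VEGF Trap minus Fc, 2 values that share the Fc libraries. Mcam, the adhesion molecule CD146 of endothelium and pericytes, showed this at 94.1, 98.3 and 81.0 CPM in ABTAA, 68.1, 54.9 and 62.0 in VEGF Trap and 109, 71.5 and 93.0 in Fc. VEGF Trap was below every other library, and the difference from ABTAA was 0.57 (SE 0.15, 95% interval 0.24 to 0.89). Aplnr, the apelin receptor, read 9.71, 9.52 and 5.32 CPM in ABTAA, 3.48, 5.36 and 2.91 in VEGF Trap and 11.3, 9.51 and 7.48 in Fc. Its lowest ABTAA library lay just under the highest of VEGF Trap, with a difference of 1.05 (SE 0.30). Unc5b, the netrin receptor of tip cells, read 26.1, 36.2 and 35.7 against 18.2, 26.3 and 20.2, with Fc at 28.5, 27.3 and 31.2. Unc5c, a related receptor, read 13.2, 4.56 and 7.51 CPM in ABTAA and 4.15, 5.16 and 3.88 in VEGF Trap, both mostly below Fc at 18.7, 14.3 and 12.8. Ets1, a transcription factor of sprouting vessels, read 126, 114 and 117 against 105, 95.7 and 93.3 with no overlap. Of the other tip cell markers, Esm1 differed by 0.06 (SE 0.19), Apln by -0.10 (SE 0.18) and Dll4 by 0.09 (SE 0.43).

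Collagen IV, the network of the basement membrane, accounted for part of that list. Its chains are encoded by Col4a1 (chr8:11198423-11312826, minus strand) and Col4a2 (chr8:11312805-11449287, plus strand), which are read in opposite directions from 1 shared start region. Their first exons share 22 bases, shown here because it is the region where the 2 genes meet, from chr8:11312805-11312826 on the plus strand of GRCm38.p6, with all bases in capitals as all are shared.
Col4a1 and Col4a2: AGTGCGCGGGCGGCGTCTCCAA
The libraries counted here read 3′ ends, which lie at the far ends of both genes. Col4a2 read 55.4, 71.3 and 68.4 CPM in ABTAA, 41.4, 47.0 and 35.2 in VEGF Trap and 59.4, 48.2 and 55.4 in Fc. ABTAA was above VEGF Trap in every library by 0.65 (SE 0.15, unadjusted p = 0.000485 by edgeR), and the lowest ABTAA value was within the range of Fc. For Col4a1 the values were 223, 217 and 189.8 CPM, 175, 163 and 144 and 232, 185 and 190.4 in the same order of groups. VEGF Trap was again the lowest of the 3, with a difference of 0.39 (SE 0.12).

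The wider list of basement membrane and fibrosis genes had 14 of 22 members with a higher mean in ABTAA and a median of 0.12, which was 0.026 without ABTAA 1. At an unadjusted p under 0.05 were 4 genes, all higher (2.64% of all genes), and 2 without ABTAA 2. Ctgf, a matrix protein induced by stretch and TGF-β, read 1817, 2238 and 1807 CPM in ABTAA, 1272, 1595 and 1441 in VEGF Trap and 2653, 2146 and 1689.6 in Fc. Its VEGF Trap libraries were below all others, by 0.44 (SE 0.15) from ABTAA. Col6a1, a chain of microfibrillar collagen VI, read 48.6, 55.1 and 46.9 against 39.9, 40.3 and 41.7 with no overlap. The fibrillar collagens of scars lay on the other side or near 0, Col1a1 at -0.19 (SE 0.22), Col1a2 at -0.18 (SE 0.15) and Col3a1 at -0.11 (SE 0.13). Lox, which crosslinks them, differed by -0.01, and Fn1, which encodes fibronectin, by 0.10.

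Mural cells wrap the endothelium, and their genes also had higher means in ABTAA. Of 9 smooth muscle genes 8 did, 4 at an unadjusted p under 0.05 (2.64% of all genes) and 0 lower, with a median of 0.37. The count was 2 without ABTAA 2 or without VEGF Trap 1, and the median was 0.21 without VEGF Trap 1. Myl9, a myosin light chain of contractile cells, read 101, 87.5 and 103 CPM in ABTAA, 62.3, 74.0 and 70.8 in VEGF Trap and 61.3, 52.2 and 64.3 in Fc. ABTAA was above both other groups in every library, by 0.49 (SE 0.13, unadjusted p = 0.00152 by edgeR) from VEGF Trap. Acta2, smooth muscle actin, read 621, 859.5 and 762.5 CPM against 391, 622 and 668, and ABTAA 1 lay within the range of VEGF Trap. Myh11, the smooth muscle myosin, read 26.6, 27.0 and 20.96 against 20.9, 14.1 and 19.96 with no overlap, and Cnn1, or calponin, was low at 2.17, 2.48 and 4.85 against 1.82, 1.602 and 1.11. Mylk, the kinase of myosin light chains, read 256, 271 and 349 against 190.1, 260.0 and 226, with Fc at 313, 307 and 306.

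Among 12 pericyte genes 9 had a higher mean in ABTAA, with a median of 0.29 that was 0.17 without ABTAA 3. Cspg4, the proteoglycan NG2, read 34.9, 53.3 and 37.1 CPM in ABTAA and 28.0, 34.5 and 29.8 in VEGF Trap with no overlap. Pdgfrb, the receptor through which endothelium recruits pericytes, read 140.3, 186 and 206 CPM against 108, 157 and 161, and library 1 was the lowest of both groups. Rgs5, a regulator of G protein signalling in pericytes, differed by 0.13 (SE 0.16). Kcnj8, a potassium channel subunit, read 2.17, 4.46 and 4.85 against 1.41, 1.67 and 2.77.

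Macrophages gather at the laser lesion and supply angiogenic factors. All 23 macrophage and microglia markers had a lower mean in ABTAA than in VEGF Trap, where 50.5% of all genes did. At an unadjusted p under 0.05 were 6, and 4 to 9 when 1 library was left out, beside 2.42% of all genes. In 9 every ABTAA library was below every VEGF Trap library, beside 4.74% of all genes. The median was -0.24. The number with a lower mean was 20 to 23 when 1 library was left out and 21 by library totals. Summed over the list, ABTAA held 11560 to 12710 CPM, VEGF Trap 13320 to 14120 CPM and Fc 11590 to 12180 CPM, so VEGF Trap was above both without overlap. The sum is weighted to abundant genes, and over members the median was -0.25 for ABTAA minus Fc and -0.04 for VEGF Trap minus Fc, 2 values that share the Fc libraries. Fewer macrophages and less RNA of these genes per cell cannot be told apart here either.

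Arg1, or arginase 1, which marks macrophages of wound healing (chr10:24915221-24927484, minus strand), had the largest difference of the list. It read 24.3, 32.5 and 27.4 CPM in ABTAA, 60.4, 33.6 and 73.1 in VEGF Trap and 83.1, 50.2 and 91.5 in Fc. Every ABTAA library was below all 6 others, with a difference of -0.98 (SE 0.26, 95% interval -1.53 to -0.43, unadjusted p = 0.00171 by edgeR) from VEGF Trap, though VEGF Trap 2 stood close. Itgam, the integrin CD11b of myeloid cells, showed the same order at 64.2, 43.2 and 46.0 CPM in ABTAA, 74.0, 67.7 and 67.4 in VEGF Trap and 109, 67.6 and 79.4 in Fc. Cd14, a co-receptor for bacterial lipid, read 7.95, 10.1 and 9.23 CPM against 11.4, 11.6 and 16.1, and Fc was at 15.2, 12.0 and 13.7.

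For other markers VEGF Trap rather than ABTAA stood away from Fc. Spp1, or osteopontin, a secreted matrix protein, read 2910.0, 3922 and 3602 CPM in ABTAA, 3979.6, 4509 and 5146 in VEGF Trap and 2904, 3176 and 3499 in Fc. VEGF Trap was above every other library, and the difference was -0.39 (SE 0.12). Cd68, a lysosomal protein of macrophages, read 355, 312 and 358 CPM, 467, 362 and 415 and 360.1, 321 and 336 in the same order. Adgre1, which encodes F4/80, read 28.2, 26.2 and 26.3 CPM in ABTAA and 33.2, 34.4 and 36.7 in VEGF Trap, and the wider Fc values of 35.0, 23.8 and 28.8 overlapped both. The genes of complement C1q, which macrophages make, differed by -0.22 for C1qa (SE 0.11), -0.25 for C1qb and -0.24 for C1qc. Gpnmb, Fcer1g and Csf1r, the last of which encodes the growth factor receptor of macrophages, differed by -0.03, -0.01 and -0.09.

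Hypoxia and glycolysis genes had a lower mean in ABTAA for 14 of 18, with a median of -0.17 and 5 genes below VEGF Trap in every library (4.74% of all genes). Their summed level was 1873 to 1941 CPM in ABTAA, 2061 to 2137 CPM in VEGF Trap and 1892 to 2157 CPM in Fc. Bnip3, a mitophagy gene induced by HIF-1, read 5.16, 4.07 and 2.03 CPM in ABTAA, 7.54, 8.29 and 6.10 in VEGF Trap and 5.51, 5.52 and 5.04 in Fc. The means of the 2 reagents lay on opposite sides of the Fc mean, and the difference was -0.94 (SE 0.31) without overlap. Slc2a1, the glucose transporter GLUT1, read 22.8, 28.6 and 31.8 CPM against 36.1, 31.3 and 38.5 and overlapped. Slc16a3, the lactate exporter MCT4 (chr11:120948480-120960868, plus strand), was not on the list but was among the smallest p-values, at 102, 85.4 and 78.4 CPM in ABTAA, 129.8, 134 and 129 in VEGF Trap and 119, 97.5 and 97.8 in Fc. The VEGF Trap libraries were above all others, with a difference of -0.57 for ABTAA (SE 0.13, unadjusted p = 0.000415 by edgeR). Vegfa, itself a target of HIF-1, differed by -0.06, and Pgk1, Aldoa and Hk2, enzymes of glycolysis, by -0.13, -0.10 and -0.17.

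**Figure D3:**
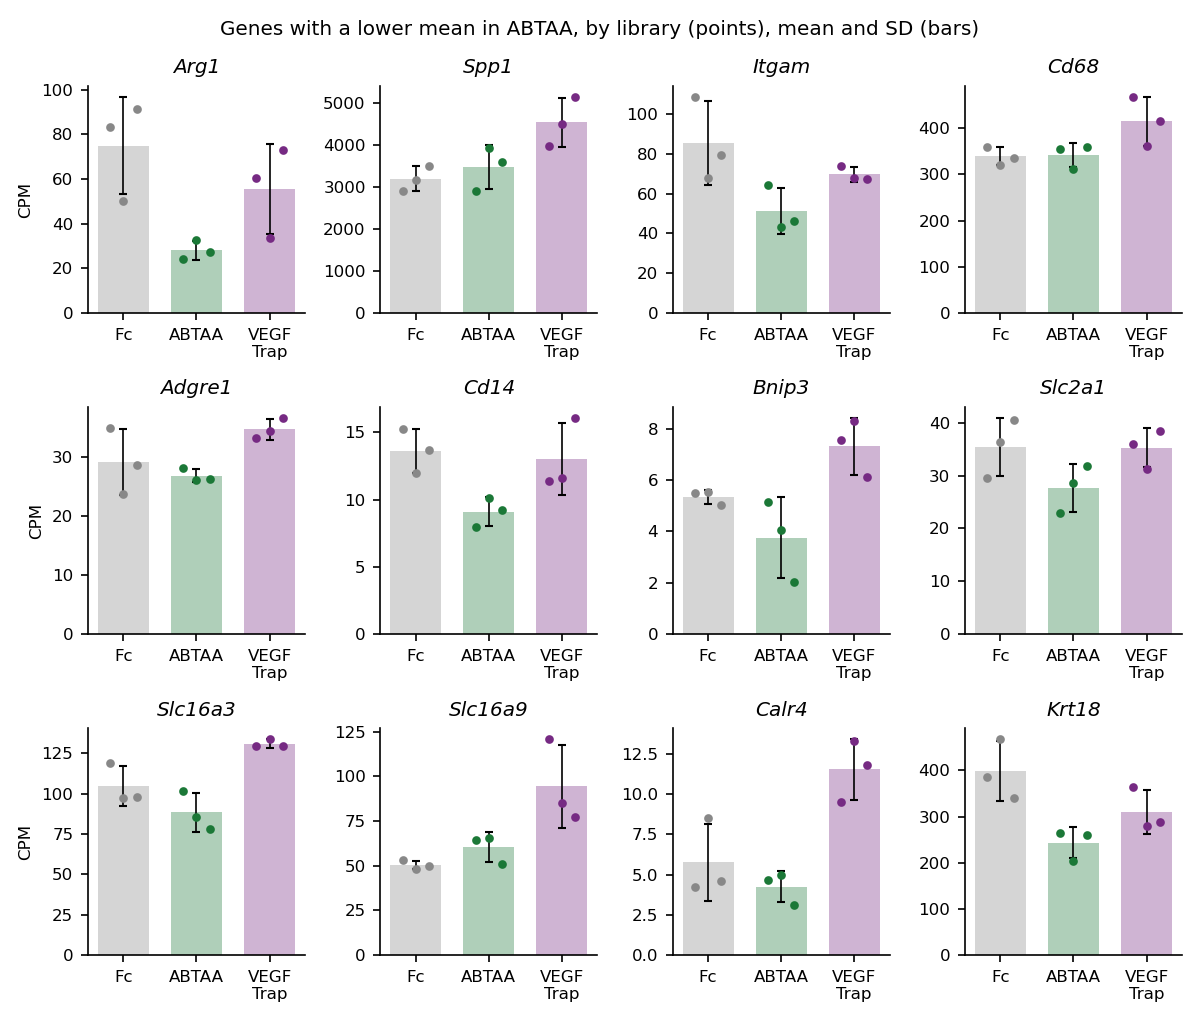
CPM of 12 genes with a lower mean in ABTAA than in VEGF Trap, in each library (points) with the mean (bar) and SD (line) of 3 libraries. In all but Slc2a1 every ABTAA library is below every VEGF Trap library, and for Spp1, Cd68, Bnip3, Slc16a3, Slc16a9 and Calr4 the VEGF Trap libraries are also above all of Fc.

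Cell cycle genes had a higher mean in ABTAA for 16 of 18 (49.5% of all genes did). At an unadjusted p under 0.05 was 1, higher in ABTAA (2.64% of all genes), and 0 to 5 over the alternatives. This was Mcm6, also the 1 member with every ABTAA library above every VEGF Trap library (5.14% of all genes). The median between the reagents was 0.23. That median was 0.12 without ABTAA 3 or without VEGF Trap 1, and 0.35 without VEGF Trap 3. It stood at -0.03 for ABTAA minus Fc and at -0.23 for VEGF Trap minus Fc, with Fc shared. Mcm6, a subunit of the replicative helicase, read 25.4, 26.1 and 24.4 CPM in ABTAA, 16.1, 21.3 and 20.8 in VEGF Trap and 26.1, 25.1 and 27.0 in Fc, and VEGF Trap was the lowest without overlap. Mki67, the proliferation marker Ki-67, differed by 0.18 (SE 0.14) and Top2a, a topoisomerase of dividing cells, by 0.13 (SE 0.14). Which cells divided is not given by bulk RNA.

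Pigment epithelium genes did not differ in one direction, with 7 of 19 higher and 12 lower in ABTAA and a median of -0.08. Rpe65, the isomerase of the visual cycle, read 177, 274 and 206 CPM in ABTAA and 184, 252 and 259 in VEGF Trap. Krt18, a keratin of the epithelium, read 264, 204 and 260.0 CPM in ABTAA, 365, 279 and 287 in VEGF Trap and 386, 468 and 339.5 in Fc, a difference of -0.36 (SE 0.14) without overlap. Among pigment genes, of which 5 of 12 were higher in ABTAA, Pmel, the fibril protein of melanosomes, read 151, 201 and 163 CPM against 139, 149 and 138, and Tyr, or tyrosinase, 16.7, 22.8 and 9.70 against 24.5, 20.5 and 15.9.

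**Figure D4:**
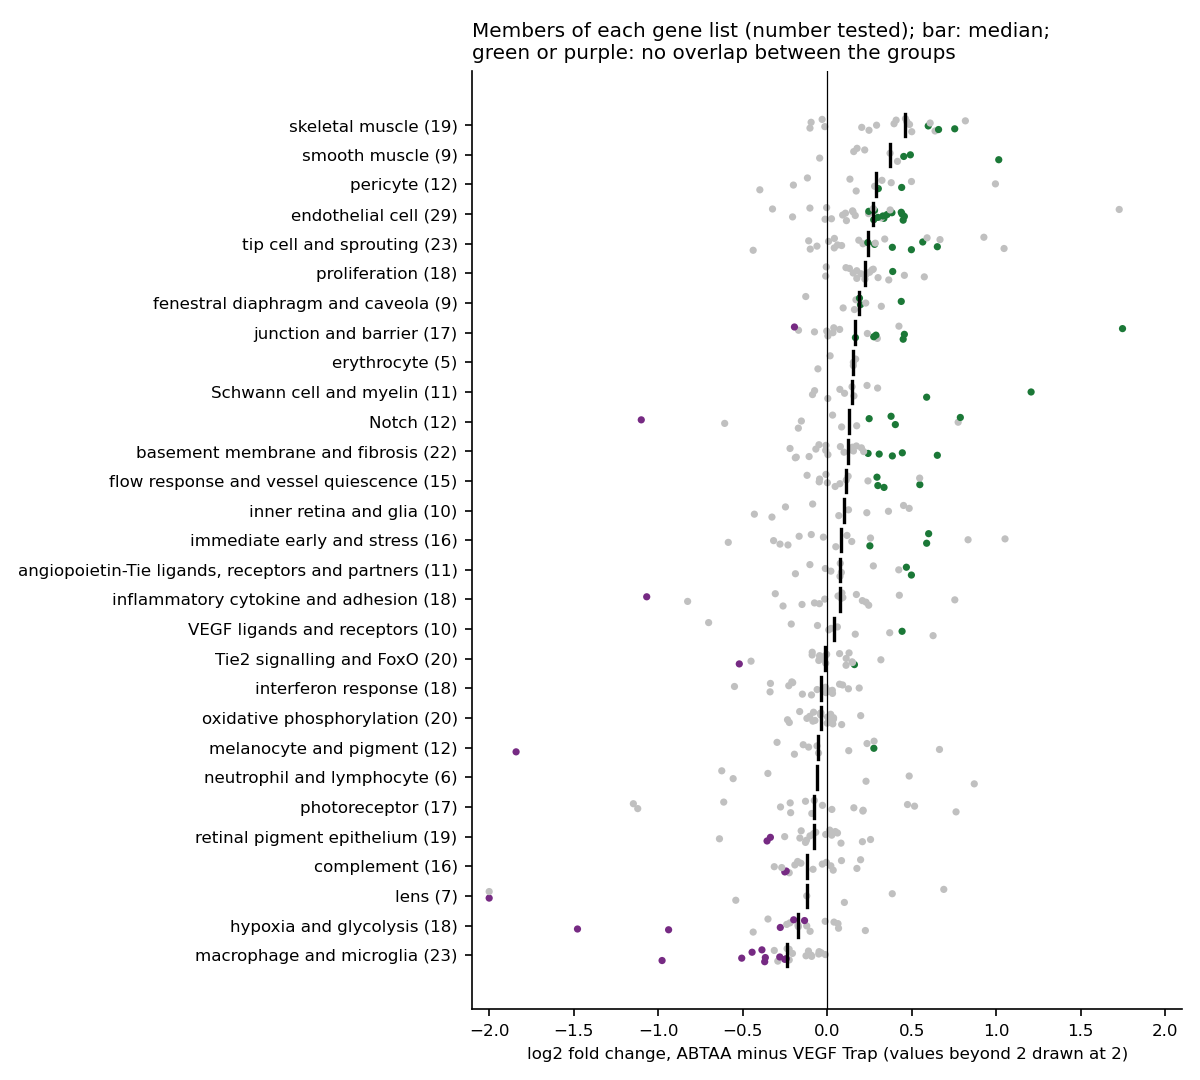
Log2 fold change, ABTAA minus VEGF Trap, of each tested member (point) of the gene lists with at least 5 tested members, with the median as a bar. Green and purple points are genes whose libraries do not overlap between the groups. Endothelial, smooth muscle and tip cell medians lie at 0.27, 0.37 and 0.24, and the macrophage median at -0.24.

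Genes of other tissues show what else the cut samples held. Skeletal muscle markers had a median of 0.46 with 15 of 19 higher in ABTAA. Their summed level in Fc was 170.7 to 257.9 CPM, below both reagents. The median was 0.18 without ABTAA 2 and 0.26 without VEGF Trap 3. Acta1, skeletal actin, read 49.2, 127 and 90.7 CPM in ABTAA and 49.9, 96.6 and 40.5 in VEGF Trap, and Ckm, muscle creatine kinase, 10.7, 19.8 and 12.8 against 7.13, 10.4 and 8.18. Lens crystallins set 1 library apart. Cryaa read 1.24, 0 and 0 CPM in ABTAA and 24.6, 1.67 and 3.74 in VEGF Trap, and Crygd 1.03, 0 and 0 against 8.87, 0.209 and 2.50, and VEGF Trap 1 was the highest library for both. Cryaa was not called here but was with no filter (adjusted p = 1.64e-07 by edgeR) and when edgeR took replicate numbers as blocks (adjusted p = 0.0186). That library also had the highest summed photoreceptor level, 334.9 CPM, against 158.8 to 250.6 CPM in ABTAA. Ncmap, a membrane protein of myelinating Schwann cells (chr4:135369576-135398227, minus strand), had the smallest p of all genes tested. It read 17.4, 22.0 and 17.8 CPM in ABTAA, 6.96, 8.78 and 9.15 in VEGF Trap and 7.85, 14.8 and 7.33 in Fc, a difference of 1.21 (SE 0.26, unadjusted p = 0.000253 by edgeR). All counts of Ncmap are multiples of 6, so its counting error may exceed what these values imply. Of the 11 Schwann cell and myelin genes 9 had a higher mean in ABTAA, with a median of 0.15, and Egr2, a transcription factor of myelination, differed by 0.59 (SE 0.30) without overlap.

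The other genes nearest the threshold belonged to no single list. Fetub, which encodes the protease inhibitor fetuin-B (chr16:22918334-22939778, plus strand), read 11.8, 22.3 and 14.1 CPM in ABTAA, 5.22, 4.81 and 2.08 in VEGF Trap and 3.64, 11.2 and 13.7 in Fc. ABTAA stood above VEGF Trap by 1.95 (SE 0.42), Fc was spread over both, and this was the gene that DESeq2 called (adjusted p = 0.0332). All counts of Fetub are multiples of 3, with the same limit as for Ncmap. Gimap4, a GTPase of lymphocytes, read 39.2, 49.6 and 53.5 CPM in ABTAA, 30.5, 24.9 and 15.9 in VEGF Trap and 43.3, 33.2 and 27.6 in Fc. Ciita, the master activator of MHC class II genes, read 22.5, 17.0 and 15.6 CPM against 4.15, 10.9 and 7.63, with Fc at 8.97, 9.00 and 14.9. All 3 ABTAA libraries were above Fc as well, by small margins for ABTAA 3. Slc9a3r2, a scaffold at the cell membrane, read 53.5, 57.7 and 68.2 CPM in ABTAA, 40.6, 36.9 and 43.3 in VEGF Trap and 40.5, 39.7 and 35.7 in Fc, and ABTAA was the highest group without overlap. Col5a3, a minor fibrillar collagen, differed by 0.67 (SE 0.17) and Foxs1, a forkhead factor found in pericytes, by 0.73 (SE 0.18). Foxs1 read 19.5, 22.3 and 20.3 CPM in ABTAA, 9.45, 15.7 and 12.2 in VEGF Trap and 21.1, 21.2 and 20.5 in Fc, so VEGF Trap was the group away from the rest. The same held for Foxred1, an assembly factor of respiratory complex I, at 16.4, 21.1 and 19.2, 12.4, 10.9 and 9.98 and 19.6, 25.5 and 20.4 CPM. Ndrg3 and Tnnt2, the cardiac troponin T, differed by 0.83 (SE 0.19) and 1.06 (SE 0.27).

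In the other direction, Calr4, a relative of the chaperone calreticulin (chr4:109234485-109254571, plus strand), read 4.65, 4.96 and 3.13 CPM in ABTAA, 9.53, 13.3 and 11.8 in VEGF Trap and 4.20, 8.49 and 4.58 in Fc. VEGF Trap was above every other library, and the difference of ABTAA from it was -1.42 (SE 0.30, 95% interval -2.06 to -0.78). Slc16a9, a carnitine and monocarboxylate transporter, gave 64.6, 65.7 and 50.8 CPM, 121, 85.2 and 77.4 and 53.0, 48.1 and 50.0 in the same order of groups, again with VEGF Trap highest. Dclre1c, the nuclease Artemis of DNA repair, read 11.2, 12.8 and 12.4 CPM in ABTAA, 18.7, 19.3 and 15.7 in VEGF Trap and 22.8, 19.6 and 19.5 in Fc, and here ABTAA was below every other library, with a difference of -0.57 (SE 0.17) from VEGF Trap. Zc3h14, a poly(A) binding protein, also had ABTAA below every other library, with 87.4, 91.1 and 90.3, 131, 112 and 117 and 103, 107 and 122 CPM. Lin37 and Hspb6, which lie end to end on opposite strands and overlap by 3 bases, differed by -0.73 and -0.64. Dlg2, Lrmp and Trmt2b differed by -1.05 (SE 0.28), -0.69 (SE 0.19) and -0.73 (SE 0.21).

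The remaining lists had medians from -0.12 to 0.16. Median differences were 0.07 for inflammatory cytokines and adhesion molecules, -0.03 for the interferon response, -0.04 for oxidative phosphorylation, -0.12 for complement, 0.08 for immediate early and stress genes, 0.10 for inner retina and glia, 0.15 for Schwann cell and myelin genes, 0.16 for erythrocyte genes, -0.12 for lens, -0.08 for photoreceptors and -0.06 for melanocytes and pigment as well as for neutrophils and lymphocytes. Several of these moved with the processing. The lens median was -2.09 with no filter, that of neutrophils and lymphocytes -0.55 with no filter and 0.45 without ABTAA 3, that of the interferon response -0.44 without ABTAA 1 and 0.13 without ABTAA 2, that of photoreceptors 0.50 without VEGF Trap 1, and that of erythrocytes -0.09 without VEGF Trap 3 and 0.45 without ABTAA 3. Of the 30 list medians 17 had the same sign under every alternative. Of the ocular surface list 1 of 9 genes was tested, at 0.034. Of 16 immediate early and stress genes 9 had a higher mean in ABTAA. With all ABTAA libraries above VEGF Trap were 3, beside 5.14% of all genes, Nr4a1 at 0.60, Egr2 and the chaperone gene Dnajb1 at 0.25. At an unadjusted p under 0.05 were 2 lower and 0 higher. Of these, Fos, an immediate early gene, read 8.88, 9.62 and 12.2 CPM in ABTAA and 18.5, 10.6 and 16.9 in VEGF Trap, and Hsp90aa1, a stress chaperone, 380.2, 316 and 359 against 561, 379.9 and 373, both with overlap. Cytokine genes such as Tnf, Il1b and Ccl2 differed by -0.31 (SE 0.67), 0.08 (SE 0.54) and -0.26 (SE 0.34), at levels near or under 10 CPM.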

How the data were processed

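RNA of laser-captured CNV lesions was read with a LEXOGEN QuantSeq kit from 500 ng of total RNA, per the labels' protocols. The authors deposited raw counts, whole numbers by gene symbol, 1 table per library. Bowtie2, edgeR and the mm10 build are named in the submitters' processing notes. Their versions, the gene annotation, the counting method and its use of strand and of reads with several hits were not given in the sources used here. Of tested genes, 2188 had counts that share a divisor above 1 over the 9 libraries, so their counting error may exceed what the counts imply. Among them were Ncmap, with a divisor of 6, and Fetub, Cryaa, Slc16a3, Foxred1, Lrmp, Eng, Tek and Vegfa, each with 3.

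Groups came from the titles. Of 24421 symbols, 14054 passed filterByExpr. After TMM scaling the test was that of edgeR 4.0.16 in R 4.3.3 (quasi-likelihood F-test, Benjamini-Hochberg over all tested genes, threshold 0.05). All 9 libraries entered 1 fit with 6 residual degrees of freedom. Fc thus added to the estimate of spread but not to the contrast. The biological coefficient of variation was 17.9%. Standard errors (SE) were derived from the F statistic, as the size of the log2 fold change over its root, and intervals cover 95%. The test was tried on simulated counts first. DESeq2 1.42.0 and limma 3.58.1 were alternatives, with another scaling, other filters, only the 6 compared libraries, the replicate number as a block, counts divided by their divisor, and each library left out.

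The members and the 30 gene lists were chosen with earlier results of these data known. Named genes were to be up to 12 per direction past the threshold with at least 10 CPM, no overlap and an established symbol. As fewer than 10 passed, the 12 per direction with the smallest unadjusted p under the same conditions were taken, with up to 4 members per list at an unadjusted p under 0.05 and a fixed set of 30 genes, 90 in all. Sox18, Icam2, Emcn, Fli1, Cd14, Cnn1, Ets1 and Unc5c, and list members given by their difference alone, were chosen after their values were seen. Some genes that the rule or the lists hold are not reported here.

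Positions came from GENCODE M21 on GRCm38, where 23376 symbols matched, 651 matched by an older name and 394 did not. Of the 90 named genes 28 share exon sequence with a gene on the other strand, over 3 bases in Lin37 and 2244 in Svep1, the shortest and longest, among them Eng (61), Egfl7 (122), Nos3 (1334), Pmel (139) and Zc3h14 (949). In 7, among them Bnip3, Lin37, Lrmp, Myh4, Nos3 and Pmel, the last 200 bases match another transcript over at least 100 bases at 95% identity (BLAST+ 2.17.0). Values of these genes are uncertain to that extent. Promoters came from the RefSeq table on GRCm38.p6, which held 65 of the 90.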

Additional observations from a re-analysis of the deposited data

How the results depend on the processing

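Adjusted calls depended on the tool and the filter. In place of 0 genes, DESeq2 called 1 (Fetub, log2 fold change 1.969, adjusted p = 0.0332) and edgeR without a filter 30, while every other alternative outside the block gave 0, including each library left out (0 to 0). No filter gave 593 higher and 555 lower genes at an unadjusted p under 0.05. Leaving out 1 library gave 296 to 503 higher and 256 to 533 lower, the last without ABTAA 1. The cause was not tested.

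The endothelial count of 11 was 6 to 12 with 1 library left out and 6 without both ABTAA 3 and VEGF Trap 3, an alternative chosen after seeing the data. The macrophage count of 6 was 4 to 9. Over all 19 alternatives the endothelial median ran from 0.2049 to 0.3127, the macrophage median from -0.2996 to -0.1835, the tip cell median from 0.1758 to 0.2977 and the hypoxia median from -0.2065 to -0.1311.

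Of 90 named genes 82 kept their sign under every alternative that gave a value. Pgf was -0.0001031 under limma-voom, Ptprb 0.03883 under limma-voom and 0.02778 under library totals, and without both ABTAA 3 and VEGF Trap 3 Nrp1 was -0.0688 and Rpe65 0.04878. With 1 library left out Dll4 ran from -0.1815 to 0.3681, Esm1 from -0.08754 to 0.2024, Klf2 from -0.05693 to 0.2499, Nrp1 from -0.1066 to 0.1452, Pgf from -0.08152 to 0.208, Ptprb from -0.1247 to 0.1305, Rpe65 from -0.2778 to 0.05038 and Vegfa from -0.134 to 0.06813.

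With the replicate number as a block edgeR called 1 gene, Cryaa (-4.549, adjusted p = 0.0186), and the counts at an unadjusted p under 0.05 were 415 higher and 392 lower. Same-numbered libraries of ABTAA and VEGF Trap correlated in their deviations from the group means at 0.112, 0.0366 and 0.0389, and 5 of 6 libraries correlated best with their own number. This is a hint from the data and not from the design, so the numbers were not taken to pair the libraries. Depth limits the low genes, where 3 counts equal up to 0.469 CPM.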
